A study of Rattus norvegicus with 287 samples.

Results

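The genes described here encode the neuropeptide precursors by which the hypothalamus drives or restrains feeding: Agrp, Npy, Pomc, Cartpt, Hcrt and Pmch. They were chosen by name, as the rows of the deposited gene table whose symbol equals one of these names, which gave 6 of 32623 genes. Their identifiers in the table are ENSRNOG00000039001 (Agrp), ENSRNOG00000009768 (Npy), ENSRNOG00000012686 (Pomc), ENSRNOG00000017712 (Cartpt), ENSRNOG00000018892 (Hcrt) and ENSRNOG00000004632 (Pmch). Each was measured in the 31 brain libraries of a rat RNA sequencing series that also covers other tissues.

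The study asked what ultrasound focused outside the brain does to diabetic and lean rats. The treatment, called pFUS, was directed to the porta hepatis, the gate of vessels and nerves into the liver. Ultrasound of 1.1 MHz was given for 3 minutes a day, controls received a sham without energy, and every rat was anaesthetised with isoflurane for it. All brain libraries come from the arm of 7 weeks. The sample labels give the tissue as brain, while the series' design text names hypothalamus.

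The brain libraries fall into 7 groups. Obese ZDF rats, the Zucker diabetic fatty strain whose obesity comes from an inherited defect of the leptin receptor, gave 5 control and 5 pFUS libraries. Lean Zucker rats gave 5 control and 5 pFUS libraries, and all of these animals were male. Rats labelled DIO-stz gave 4 control libraries (2 females and 2 males) and 5 pFUS libraries (1 female and 4 males). Rats labelled DIO Diet Resistant gave 2 pFUS libraries, both female, and have no control of their own. The labels give no age, no diet and no allele. They do not say that the libraries of a group come from separate animals, so p-values measure the spread between these libraries.

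Agrp and Npy are made by neurons of the arcuate nucleus that promote eating. AGRP blocks the melanocortin receptors, and NPY acts on its own family of receptors. Neighbouring arcuate neurons make POMC, the precursor of the melanocortin that activates those receptors and restrains eating, and many of them also make CART from Cartpt. Hcrt (orexin) and Pmch (melanin-concentrating hormone) belong to separate neurons of the lateral hypothalamus, which drive arousal and food intake. Leptin is known to raise Pomc and to lower Agrp and Npy, so a rat without working leptin receptors is a classic setting in which to look at these genes.

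The stretches upstream of the start site were read for the 5 members with an entry in RefSeq's promoter table (build GRCr8): Agrp, Npy, Pomc, Cartpt and Hcrt. The 3 shown are those in which a searched motif was found in the 250 bases before the start, and capitals mark it. Both strands were searched for TATAAA, the TATA box, for TGACGTCA, the full cyclic AMP response element, and for TTCNNNGAA, the core bound by STAT factors such as the one leptin activates.
Pomc, chr6:32659203-32659352, plus strand: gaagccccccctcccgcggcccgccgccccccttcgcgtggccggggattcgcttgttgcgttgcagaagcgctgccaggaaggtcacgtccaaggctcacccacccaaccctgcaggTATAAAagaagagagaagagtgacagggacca
Cartpt, chr2:32991236-32991385, minus strand: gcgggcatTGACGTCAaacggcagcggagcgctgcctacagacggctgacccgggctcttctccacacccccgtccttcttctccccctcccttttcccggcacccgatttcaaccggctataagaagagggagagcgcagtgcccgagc
Hcrt, chr10:86191525-86191674, minus strand: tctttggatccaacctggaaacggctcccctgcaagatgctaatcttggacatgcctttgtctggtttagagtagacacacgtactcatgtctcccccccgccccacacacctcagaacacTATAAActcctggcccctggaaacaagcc

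The TATA box begins 32 bases before the start in Pomc and 29 bases before it in Hcrt, and 12.9% of 33469 RefSeq promoters hold these letters. The cyclic AMP element begins 142 bases before the start in Cartpt, and 1.59% of promoters hold it. The STAT core, held by 7.67% of promoters, is not in the windows of the 5 members. A match is a description of the letters and nothing more.

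Expression is given as CPM, counts scaled to a common library total. Brain totals ran from 6946906 to 16504326 counts, so that 3 counts, the most that a count of 0 allows, correspond to 0.182 to 0.432 CPM. No pair of libraries within a group held the same values: of 57 pairs, the most alike still differed by 7.10 times the chi-square that counting noise gives. The whole set of members ran low outside a few libraries, so that the depth matters for each gene. Pmch reached 3906 counts, Hcrt 588, Cartpt 554 and Pomc 535, whereas Agrp reached 42 counts and Npy 46. The annotation holds 1 transcript for each member, and its deposited count equals the gene's.

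The brain libraries did not hold the same part of the brain in like amounts, and this stands before every result below. The summed level of 6 transcription factors chosen as markers of the hypothalamus (Nkx2-1, Rax, Otp, Hmx3, Hmx2 and Nkx2-2) ran from 3.15 to 42.2 CPM, with a median of 9.03 CPM. Avp, the vasopressin gene of the paraventricular and supraoptic nuclei, ran from 0 to 439.5 CPM, with 13 of 31 libraries under 1 CPM and 16 at or above 10 CPM. Slc17a7, the glutamate transporter of cortex and hippocampus, ran from 31.7 to 2199 CPM. Otp, a factor of hypothalamic neurons, was at 0 in 10 of 31 libraries. The marker sum did not follow each of these genes. In DIO-stz pFUS rats its median was 14.2 CPM, beside medians of 0.598 CPM for Nkx2-1, 0.526 CPM for Otp and 0.119 CPM for Avp. The sum, and the covariate built on it below, is therefore a rough measure of how much hypothalamus a library holds. In bulk tissue, fewer cells of a type and less RNA per cell cannot be told apart.

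**Figure D1:**
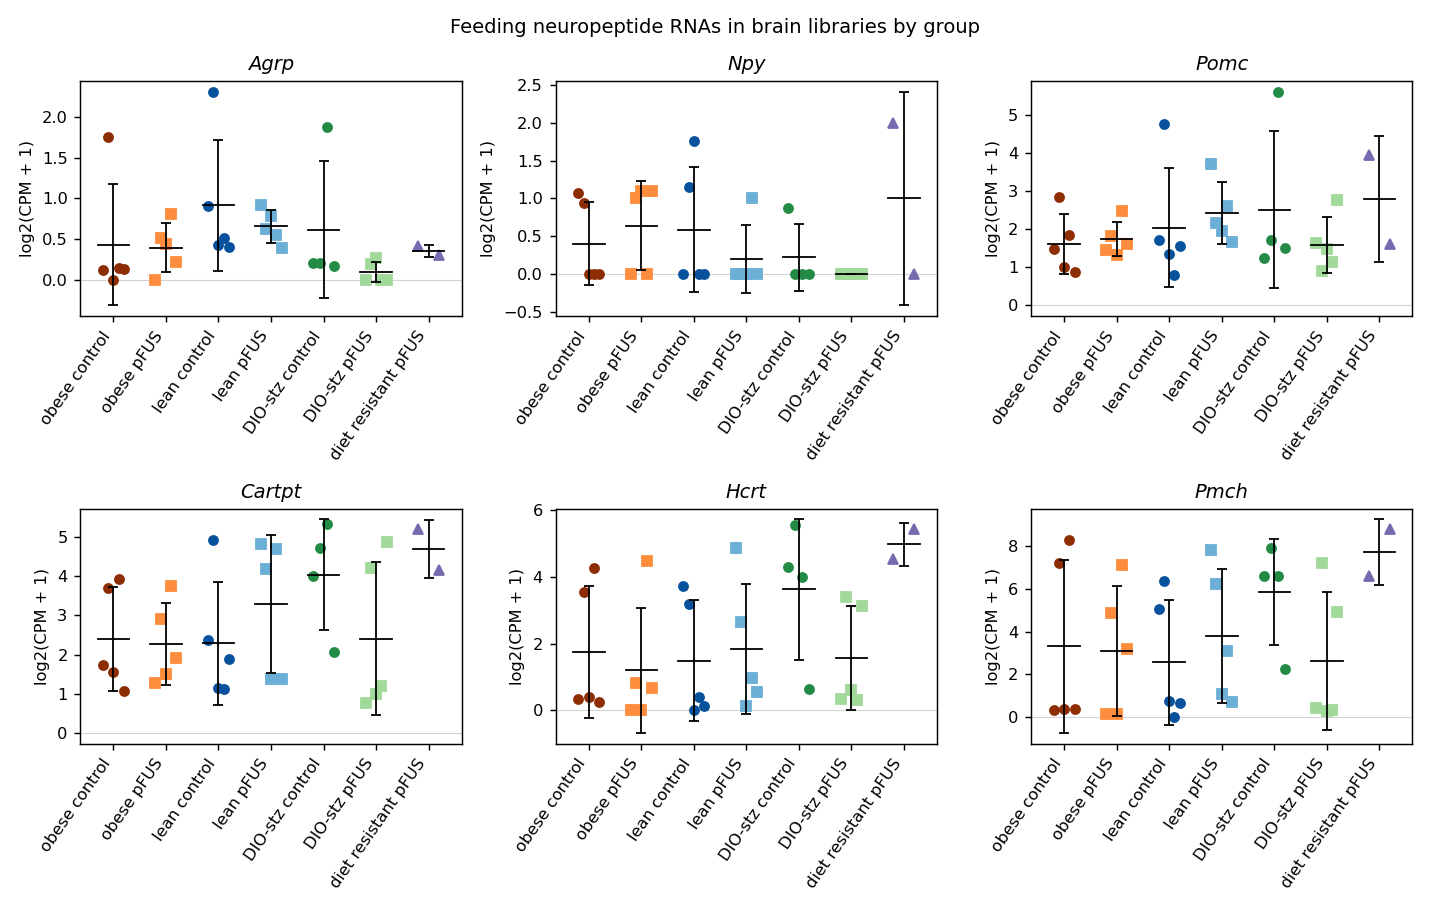
Level of each member in every brain library, as log2(CPM + 1), by group. Circles are controls, squares pFUS, triangles diet resistant rats, and bars the mean ± SD. Within each of the obese and lean groups Pmch has 2 libraries at or above 10 CPM and 3 below it, and the groups of every member overlap in each comparison.

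Pmch, the precursor of melanin-concentrating hormone, showed the widest range of the members. In obese controls it stood at 0.257, 148, 0.314, 310.4 and 0.277 CPM. In lean controls it stood at 31.9, 81.5, 0.686, 0 and 0.570 CPM. Both groups thus held 2 libraries rich in Pmch and 3 with almost none, and they overlapped throughout.

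The pFUS libraries were split in the same manner. Obese pFUS libraries held 0.109, 28.6, 0.0874, 138 and 8.10 CPM of Pmch. Lean pFUS libraries held 223.6, 74.6, 1.08, 7.64 and 0.617 CPM, a ratio of 363 between the highest and the lowest. Counted at 10 CPM or more, Pmch was present in 2 of 5 libraries in each of the 4 groups of obese and lean rats.

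In the DIO-stz cohort Pmch stood at 98.0, 241.3, 98.1 and 3.76 CPM in controls. In DIO-stz pFUS rats it stood at 0.351, 147, 0.199, 0.239 and 29.7 CPM. Diet resistant rats held 98.0 and 447.5 CPM, the second being the highest Pmch of all brain libraries. Libraries at or above 10 CPM numbered 3 of 4 controls, 2 of 5 pFUS and 2 of 2 diet resistant rats, and the control and pFUS ranges overlapped.

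Hcrt, the orexin precursor, followed Pmch from library to library. Its levels were 0.257, 10.7, 0.314, 18.2 and 0.184 CPM in obese controls and 12.2, 8.04, 0, 0.318 and 0.0814 CPM in lean controls. With pFUS they were 0, 0.760, 0, 21.4 and 0.572 CPM in obese rats and 28.1, 5.33, 0.0900, 0.936 and 0.462 CPM in lean rats. The libraries with high Hcrt were among those with high Pmch in each of these groups.

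DIO-stz controls held 18.8, 45.9, 15.1 and 0.545 CPM of Hcrt, and DIO-stz pFUS rats held 0.263, 9.50, 0.531, 0.239 and 7.73 CPM. Diet resistant rats held 22.1 and 42.4 CPM. Over all 31 libraries, 10 had at least 10 CPM of both Hcrt and Pmch, 5 had it of Pmch and not of Hcrt, none had it of Hcrt and not of Pmch, and 16 had it of neither. The 2 genes thus split the libraries alike, although separate neurons make them.

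**Figure D2:**
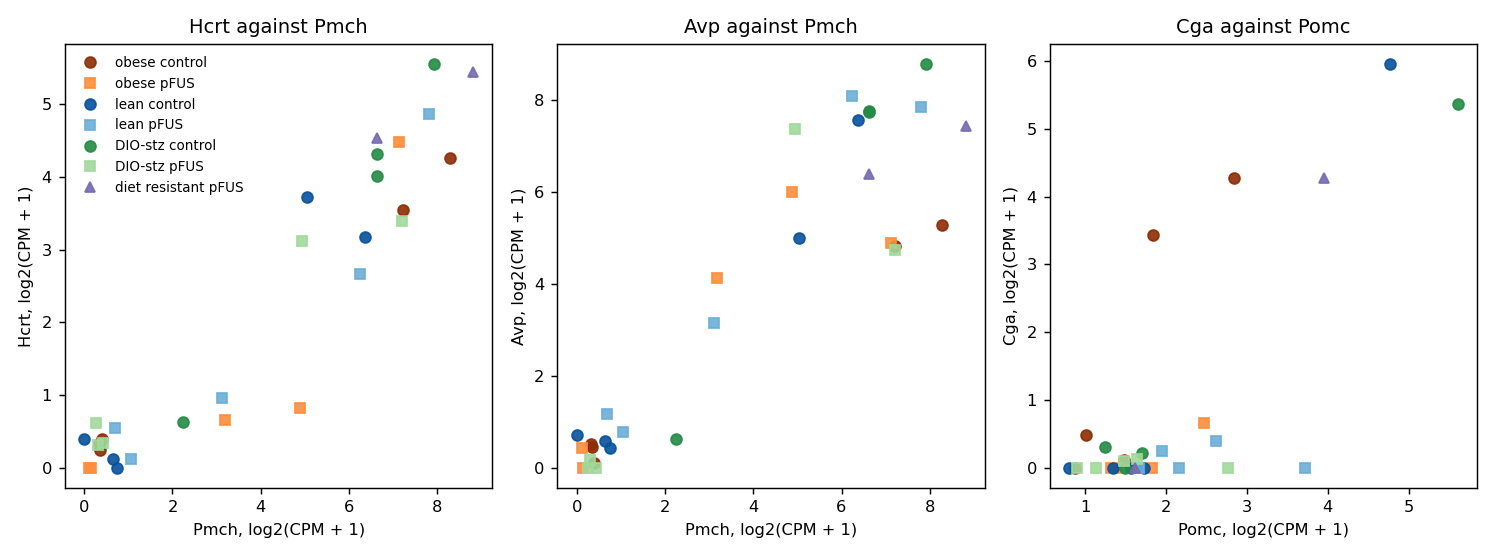
Pairs of genes in the 31 brain libraries, each axis as log2(CPM + 1): Hcrt against Pmch, Avp against Pmch, and Cga, a pituitary hormone gene, against Pomc. Points are libraries, drawn by group. All 15 libraries with at least 10 CPM of Pmch also have at least 10 CPM of Avp.

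The split in Pmch was shared with Avp, which is no feeding peptide and belongs to other nuclei of the hypothalamus. At 10 CPM, 15 libraries had both Pmch and Avp, 15 had neither, and 1 had Avp alone: obese pFUS 10, with 16.6 CPM of Avp and 8.10 CPM of Pmch. Oxt, the oxytocin gene of the same nuclei as Avp, gave 14 libraries with both, 14 with neither, 1 with Pmch alone and 2 with Oxt alone. In the 20 obese and lean libraries, Pmch was correlated with the summed level of 5 paraventricular and supraoptic genes at r = 0.88, and with 6 genes of cortex and hippocampus at r = -0.66. In the 11 libraries of the DIO cohort these values were 0.92 and -0.67. They are descriptions over libraries that share their sorting into high and low, and the part of dissection in any comparison of Pmch or Hcrt was not tested beyond the fit with hypothalamic markers as a covariate, given beside the comparisons.

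Pomc, the melanocortin precursor, was detected in every brain library. It stood at 1.80, 6.16, 1.02, 2.59 and 0.830 CPM in obese controls and at 2.30, 26.2, 1.54, 0.742 and 1.95 CPM in lean controls. With pFUS it stood at 1.74, 2.54, 1.49, 4.52 and 2.04 CPM in obese rats and at 12.2, 3.48, 2.88, 5.15 and 2.16 CPM in lean rats. The higher lean mean in controls, 6.55 ± 11.0 CPM (SD, n = 5) against 2.48 ± 2.17 CPM (SD, n = 5) in obese controls, came with 1 library, lean control 12, at 26.2 CPM, and the medians were 1.95 and 1.80 CPM.

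In the DIO-stz cohort Pomc stood at 1.37, 2.27, 47.8 and 1.82 CPM in controls and at 2.11, 0.864, 1.79, 1.20 and 5.81 CPM in pFUS rats. Diet resistant rats held 14.5 and 2.06 CPM. Again 1 control, DIO-stz control 5, stood far above the others, and the groups overlapped.

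Of the 4 libraries with at least 10 CPM of Pomc, 3 also had at least 10 CPM of Cga, the shared alpha subunit of the pituitary glycoprotein hormones, and the other, lean pFUS 16, had none. Cga stood at 61.1 CPM in lean control 12, 40.2 CPM in DIO-stz control 5, 18.4 CPM in diet resistant 1, 18.3 CPM in obese control 2 and 9.84 CPM in obese control 4, and it was under 1 CPM in the other 26 libraries. Tshb, the thyrotropin subunit, was at 7.94 and 5.90 CPM in lean control 12 and DIO-stz control 5. Among the other pituitary genes, Prl reached 1.37 CPM over all brain libraries, Gh1 0.385 CPM, Fshb 0.189 CPM and the factor Pou1f1 0.318 CPM. Lhb, a gonadotropin subunit, was counted in every library at 0.979 to 4.99 CPM, and so was the factor Tbx19 at 0.837 to 9.23 CPM, with lean pFUS 16 the highest. The factor Pitx1 was at 0 in 20 libraries and reached 1.52 CPM in DIO-stz control 5. Summed over the 9 pituitary genes searched, the level ran from 3.85 to 26.4 CPM in obese controls, 3.59 to 6.22 in obese pFUS, 3.65 to 80.0 in lean controls, 5.22 to 12.1 in lean pFUS, 7.76 to 60.0 in DIO-stz controls and 4.42 to 9.30 in DIO-stz pFUS rats. The part of pituitary tissue in the Pomc levels was not tested.

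Cartpt, the CART precursor, was also detected in every library. Obese controls held 2.31, 12.0, 1.96, 14.2 and 1.11 CPM and lean controls 4.21, 29.2, 1.20, 1.17 and 2.69 CPM. With pFUS, obese rats held 1.41, 6.51, 1.84, 12.5 and 2.78 CPM and lean rats 27.1, 17.1, 1.62, 25.0 and 1.62 CPM. Lean pFUS rats had the highest mean of these 4 groups, 14.5 ± 12.3 CPM (SD, n = 5), yet 2 of their 5 libraries were as low as the low libraries of the other groups.

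DIO-stz controls held 15.2, 25.2, 39.5 and 3.21 CPM of Cartpt, and DIO-stz pFUS rats 0.702, 17.4, 0.996, 1.31 and 28.2 CPM. Diet resistant rats held 36.1 and 17.0 CPM. Of the 31 libraries, 13 had at least 10 CPM of both Cartpt and Pmch and 15 of neither, and all 4 libraries with at least 10 CPM of Pomc had it of Cartpt too. Another 10 libraries had at least 10 CPM of Cartpt and not of Pomc. At that level Cartpt thus split the libraries much as Pmch did, and its overlap with Pomc rests on 4 libraries.

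Agrp, the melanocortin receptor antagonist, was close to the limit of detection, with 5 of 31 libraries at 0 and 16 above 3 counts. It stood at 0.0855, 2.38, 0, 0.0994 and 0.0922 CPM in obese controls, and at 0.874, 3.97, 0.343, 0.424 and 0.326 CPM in lean controls. With pFUS it stood at 0, 0.422, 0.350, 0.753 and 0.164 CPM in obese rats and 0.893, 0.544, 0.720, 0.468 and 0.308 CPM in lean rats. Every lean library was above 3 counts, against 4 of the 10 obese libraries, and those 4 obese libraries lay inside the lean range. That split hangs on the cutoff. Lean control 13, 14 and 15, lean pFUS 20 and obese pFUS 8 each held exactly 4 counts.

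In the DIO-stz cohort Agrp stood at 0.152, 0.156, 2.68 and 0.121 CPM in controls and at 0, 0.144, 0.199, 0 and 0 CPM in pFUS rats. Diet resistant rats held 0.326 and 0.229 CPM. Among the DIO-stz libraries, DIO-stz control 5 alone was above 3 counts, and it was also the library with the most Pomc.

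Npy, the orexigenic partner of Agrp, was listed at 0 in 21 of 31 brain libraries, and its values have a pattern that limits what they can say. Over all libraries of the series it was listed at 0 in 239 and never at 1 to 8 or 15 to 25 counts, and 20 of its 48 values above 0 lay from 9 to 14 counts. A gene counted read by read would also show small counts, so a listed 0 in brain is not read as absence. Its nonzero brain values were 1.11 and 0.910 CPM in obese controls, 1.01, 1.14 and 1.14 CPM in obese pFUS rats, 1.23 and 2.40 CPM in lean controls, 1.01 CPM in lean pFUS rats, 0.839 CPM in DIO-stz controls and 3.00 CPM in diet resistant rats. All 5 DIO-stz pFUS libraries were listed at 0, as were 3 of the 4 controls.

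By group mean, the order of levels was not the same for every member. Each member has 6 pairs of neighbouring groups in its order. Neighbours are the groups nearest in mean and hold few libraries, so that they overlap easily. The share of overlapping pairs over all genes was not computed, and the counts that follow are a description only. The libraries of the neighbours overlapped in 6 of 6 pairs for Npy, Pomc, Cartpt, Hcrt and Pmch. For Agrp they overlapped in 5 of 6, the 2 diet resistant libraries lying above the 5 DIO-stz pFUS libraries in CPM. By counts that pair was not parted: diet resistant 2 held 2 counts of Agrp and DIO-stz pFUS 9 held 3. Both are within the 3 counts that a count of 0 allows. Diet resistant rats had the highest mean Pmch, 272.7 CPM, the highest mean Hcrt, 32.2 CPM, and the highest mean Cartpt, 26.5 CPM. Lean controls had the lowest mean Pmch, 22.9 ± 35.5 CPM (SD, n = 5), and DIO-stz pFUS rats the lowest mean Pomc, 2.35 ± 1.99 CPM (SD, n = 5). With 2 libraries and all females, the diet resistant rats entered no test against another group.

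Pmch, Hcrt, Cartpt and Pomc were among the genes that vary most between libraries of the same group. The SD within groups of log2(CPM + 1) was 3.16 for Pmch, the third highest of 14791 genes, 1.84 for Hcrt (rank 21), 1.52 for Cartpt (rank 49) and 1.18 for Pomc (rank 137). It was 0.60 for Npy (rank 2732) and 0.56 for Agrp (rank 3234), whose low counts leave little room above the pseudocount of 1 CPM. The median of all genes was 0.365. With a pseudocount of 0.1 CPM the ranks were 3 for Pmch, 22 for Hcrt, 135 for Cartpt and 341 for Pomc. The SD was then 1.84 for Npy (rank 126) and 1.27 for Agrp (rank 527), against a median of 0.427. The genes beside Pmch at the top were Ttr, the transthyretin of choroid plexus, at 3.62, Oxt at 3.33 and Avp at 3.15.

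**Figure D3:**
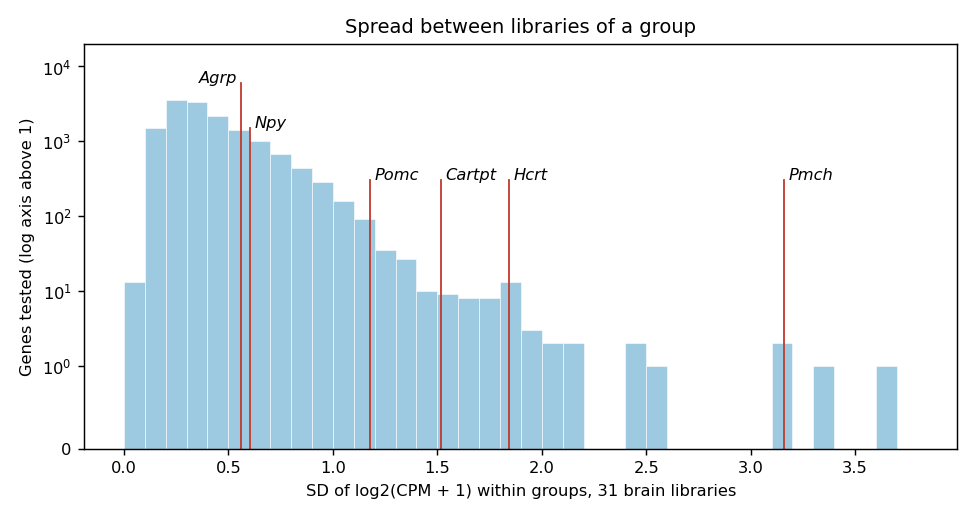
Histogram of the SD within groups of log2(CPM + 1) over the 14791 genes tested in obese and lean brain, with the number of genes on the vertical axis. Red lines mark the members: Pmch at 3.16 is far to the right of the median of 0.365, while Npy and Agrp are at 0.60 and 0.56.

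Levels were then compared between obese and lean controls, the comparison that asks how a rat with defective leptin receptors differs in these genes. Of 14791 genes, 48 (0.325%) passed an adjusted p under 0.05 by edgeR's quasi-likelihood test with Benjamini-Hochberg adjustment, and none of the 5 members tested was among them. Agrp did not pass the filter on low counts and was compared by an exact permutation test. None of the 5 passed by DESeq2 either, where the lowest adjusted p was 0.757, and none had an unadjusted p under 0.05 by edgeR, as 791 genes (5.35%) did, with Pomc nearest at 0.0719.

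Pomc was 1.51 ± 0.79 (SE) lower in obese controls on the log2 scale as fitted, a log2 fold change of -1.51 with a 95% interval of -3.16 to 0.15 and an edgeR adjusted p of 0.972. Its sign hung on lean control 12, without which the value was 0.39. Cartpt gave a log2 fold change of -0.41 (interval -2.43 to 1.61) and Npy one of -0.96 (-3.80 to 1.89). Pmch gave 1.86 (-2.12 to 5.84) and Hcrt 0.33 (-2.99 to 3.65), each with an adjusted p of 1.00 by edgeR. Without that same library Cartpt gave 1.23, without lean control 13 Npy gave 0.33, and without obese control 4 Hcrt gave -0.73. With the summed hypothalamic markers as a covariate, an alternative added after the data were seen, Pmch turned to -1.70 and Hcrt to -2.50. The intervals of Pmch, Hcrt and Npy reach at least 1.89 to either side of 0 on the log2 scale, so these libraries do not show whether their levels differed. The summed hypothalamic markers ran from 3.69 to 15.1 CPM in obese controls and from 4.07 to 18.3 CPM in lean controls.

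Agrp was lower in obese controls by a difference of -0.48 in log2(CPM + 1), with a two-sided exact permutation p of 0.421 (n = 5 and 5, 252 arrangements). Without obese control 2, the obese library with 2.38 CPM, the difference was -0.82 and the exact permutation p 0.0317. The remaining 4 obese controls lay below all 5 lean controls, and that library was chosen for omission only as 1 of the 10 left out in turn. Leaving out the highest library of the group with the lower mean always widens the difference. Obese control 2 also held the most Nkx2-1 of the obese controls, 6.16 CPM, and 148 CPM of Pmch. Agrp was not in the fit with the marker covariate. Over those 10 omissions the difference ran from -0.82 to -0.13, and no other omission gave an exact permutation p under 0.05.

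In pFUS rats, obese and lean libraries that the controls' comparison does not use were set against each other. By edgeR 383 of 14791 genes (2.59%) passed, and none of the 5 members tested did. None of the 5 had an unadjusted p under 0.05, where 3133 genes (21.2%) did. The lowest adjusted p of a member was 0.242 by DESeq2. Cartpt gave a log2 fold change of -1.67 ± 0.98 (SE; interval -3.72 to 0.39, edgeR adjusted p = 0.347) and Pomc one of -1.16 ± 0.79 (SE; interval -2.81 to 0.50, edgeR adjusted p = 0.423). Pmch gave -0.85, Hcrt -0.65 and Npy 1.36, with edgeR adjusted p of 0.852, 0.871 and 0.651. Without lean pFUS 16, the lean library richest in both, Pmch gave 0.64 and Hcrt 1.32. With the marker covariate they gave 2.31 and 1.53, and Cartpt and Pomc gave -0.03 and -0.25. The hypothalamic markers moved with Pomc and Cartpt here, with a summed level of 3.15 to 9.03 CPM in obese and 3.78 to 15.7 CPM in lean pFUS rats, and Rax at 0 in every obese pFUS library.

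Agrp differed by -0.26 in log2(CPM + 1) in the pFUS rats, with an exact permutation p of 0.159 (n = 5 and 5). Without obese pFUS 9, at 0.753 CPM, the difference was -0.36 and the exact permutation p 0.0397. The library left out was again the obese one highest in Agrp, an omission that widens the difference by itself. The same outcome in controls and pFUS rats is therefore not a repeated finding. Obese pFUS 9 was also the obese pFUS library with the most Pmch, 138 CPM, and the most Hcrt, 21.4 CPM. Over the 10 omissions the difference ran from -0.36 to -0.16, and no other omission passed.

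Averaged over both arms, 10 obese against 10 lean rats, 575 of 14791 genes (3.89%) passed by edgeR and none of the 5 members tested did. Pomc was the nearest, with a log2 fold change of -1.33 ± 0.56 (SE), an interval of -2.50 to -0.16, an unadjusted p of 0.0277 and an edgeR adjusted p of 0.189, and it was the only member with an unadjusted p under 0.05. That is 1 of 5 members, where 2933 of 14791 genes (19.8%) had one. Over the alternatives its adjusted p ran from 0.0962 to 0.683. The highest was without lean control 12, where the log2 fold change was -0.38. With the summed hypothalamic markers as a covariate the log2 fold change was -0.75 with an edgeR adjusted p of 0.201.

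Cartpt averaged -1.04 ± 0.69 (SE; interval -2.48 to 0.40, edgeR adjusted p = 0.434). Pmch averaged 0.51 (interval -2.23 to 3.24), Npy 0.20 (-1.85 to 2.26) and Hcrt -0.16 (-2.50 to 2.19), with edgeR adjusted p of 0.889, 0.946 and 0.963. Their signs turned without single libraries, to -0.46 for Pmch without obese pFUS 9, -0.17 for Npy without obese control 1 and 0.83 for Hcrt without lean pFUS 16. Agrp averaged -0.37 in log2(CPM + 1), with an exact permutation p of 0.179 over 63504 arrangements within arms, and -0.54 with an exact permutation p of 0.00564 without obese control 2. That omission, too, took out the obese library highest in Agrp, which widens the difference by itself. Over the 20 omissions the averaged Agrp difference ran from -0.54 to -0.20, and no other omission passed. The 2 melanocortin genes with opposite roles, Pomc and its receptors' antagonist Agrp, thus both had lower values in obese libraries, and neither passed its test with all libraries in.

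**Figure D4:**
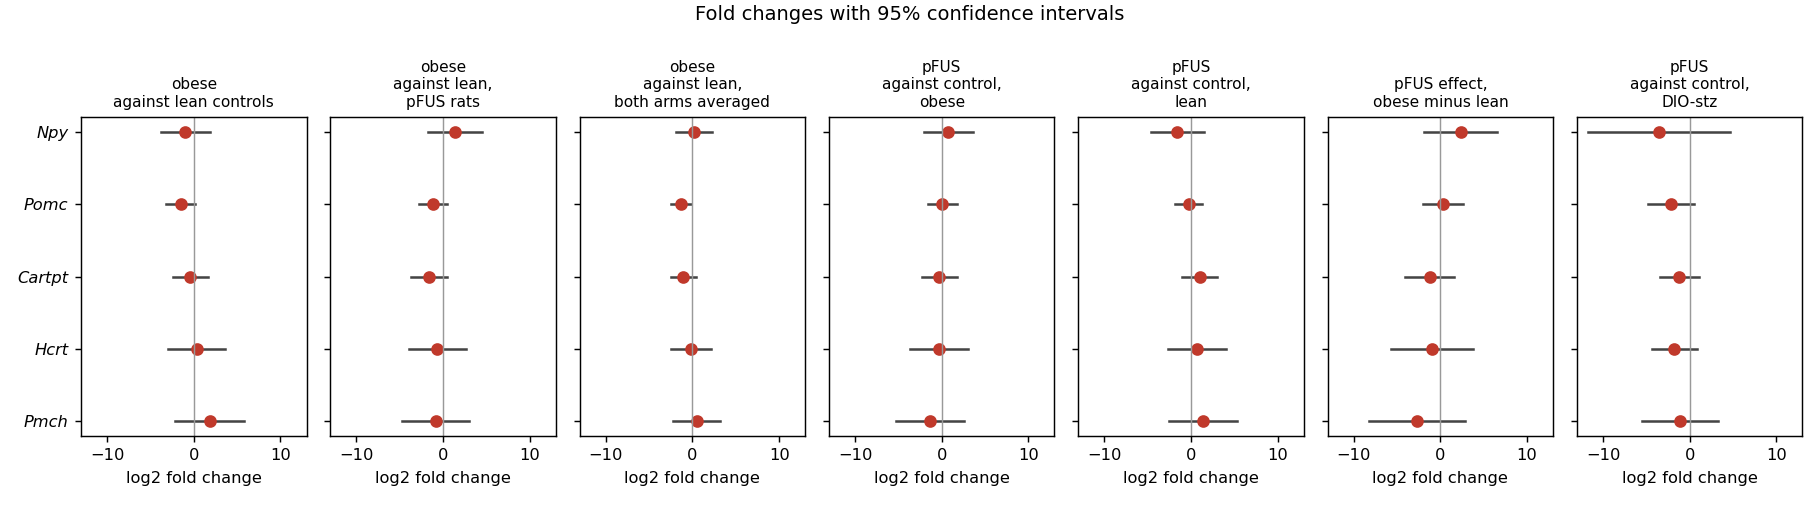
Log2 fold changes of the 5 members that passed the filter on low counts, in the 7 comparisons, by edgeR. Points are the fitted values and lines the 95% intervals. Each interval takes in 0 except that of Pomc in obese against lean rats averaged over both arms, -2.50 to -0.16, which did not pass after adjustment.

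Ultrasound against sham was compared in each model. In obese rats 0 of 14791 genes (0%) passed by edgeR, 281 had an unadjusted p under 0.05 and 7 passed by DESeq2, with no member among any of these. Pomc gave a log2 fold change of 0.05 ± 0.80 (SE; interval -1.61 to 1.72), Cartpt -0.27 (-2.30 to 1.77), Npy 0.74 (-2.10 to 3.59), Hcrt -0.33 (-3.65 to 2.98) and Pmch -1.34 (-5.25 to 2.56), each at an edgeR adjusted p of 1. Agrp differed by -0.03 in log2(CPM + 1), with an exact permutation p of 0.952. Without obese control 4, Cartpt gave 0.27 and Hcrt 0.72, without obese control 2 Agrp gave 0.30, and without obese pFUS 9 Pomc gave -0.28. With the marker covariate Pmch gave 1.82, Hcrt 1.46 and Cartpt 0.89. The mean Pomc level was 2.46 ± 1.21 CPM (SD, n = 5) with pFUS and 2.48 ± 2.17 CPM (SD, n = 5) without it, a difference smaller than the spread of either group.

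In lean rats 0 of 14791 genes (0%) passed by edgeR, 985 had an unadjusted p under 0.05 and 2 passed by DESeq2, again with no member among them. Cartpt gave a log2 fold change of 0.99 ± 0.96 (SE; interval -1.03 to 3.00, edgeR adjusted p = 0.892) and Pomc one of -0.30 ± 0.77 (SE; interval -1.90 to 1.31, edgeR adjusted p = 0.984). Pmch gave 1.37 (-2.56 to 5.30), Hcrt 0.65 (-2.68 to 3.97) and Npy -1.58 (-4.65 to 1.49), with edgeR adjusted p of 0.942, 0.983 and 0.883. Agrp differed by -0.26 with an exact permutation p of 0.746. Without lean control 12, Pomc gave 1.60 and Agrp 0.0921, and without lean pFUS 16, Pmch gave -0.13 and Hcrt -1.32. Cartpt and Npy kept their sign with each library left out. With the marker covariate Pmch gave -2.19 and Hcrt -2.56.

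The difference between the pFUS effects in obese and lean rats was tested itself, as an interaction. By edgeR 0 of 14791 genes (0%) passed, 774 had an unadjusted p under 0.05 and 3 passed by DESeq2, and no member was among them. The log2 values were -2.71 for Pmch (interval -8.25 to 2.83), 2.32 for Npy (-1.87 to 6.51), 0.35 for Pomc (-1.97 to 2.66), -1.25 for Cartpt (-4.12 to 1.61) and -0.98 for Hcrt (-5.67 to 3.72), all at an edgeR adjusted p of 1.00. Pomc turned to -1.55 without lean control 12 and Hcrt to 0.99 without lean pFUS 16. The marker covariate gave 4.01 for Pmch, 4.02 for Hcrt and 0.55 for Cartpt. Intervals of this width, that of Pmch above all, set almost no limit on the difference.

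In DIO-stz rats, fitted with sex as a term, 0 of 15301 genes (0%) passed by edgeR, 201 had an unadjusted p under 0.05 and 0 passed by DESeq2, and no member was among them. All 5 members tested had negative values: Pomc -2.16 ± 1.21 (SE; interval -4.87 to 0.55), Hcrt -1.81 (-4.40 to 0.79), Cartpt -1.19 (-3.44 to 1.07), Pmch -1.08 (-5.46 to 3.31) and Npy -3.53 (-11.67 to 4.60), each at an edgeR adjusted p of 1. Agrp differed by -0.52 in log2(CPM + 1) with an exact permutation p of 0.0635 over 126 arrangements without the sex term, where the smallest p possible is 0.00794. Without DIO-stz control 5, the library richest in Pomc and Cartpt, the values were 0.60 for Pomc, 0.48 for Cartpt and 0.33 for Pmch. The hypothalamic markers differed too. Their summed level ran from 6.54 to 42.2 CPM with a median of 30.2 in controls. It ran from 3.58 to 28.0 CPM with a median of 14.2 in pFUS rats, with Rax at 0 in every pFUS library. Single genes parted further than the sum. Medians in controls and pFUS rats were 5.25 and 0.598 CPM for Nkx2-1, 9.24 and 0.526 CPM for Otp, and 213.7 and 0.119 CPM for Avp. With the summed markers as a covariate the values were 0.20 for Pmch, -0.54 for Hcrt, -0.19 for Pomc and -0.12 for Cartpt.

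Ratios of members within a library were compared on the scale of log2(CPM + 1). On that scale they do not cancel how much hypothalamus a library holds: Hcrt to Pmch lies near 0 in libraries poor in both and far below 0 in those rich in Pmch. Agrp and Npy mostly lie under the 1 CPM added, so their ratios to Pomc largely follow Pomc. The ratios were Agrp to Pomc, Npy to Pomc, Agrp to Npy, Hcrt to Pmch and Cartpt to Pomc, each in 4 comparisons. None of the 20 passed, and the lowest exact permutation p was 0.190, for Cartpt to Pomc in obese against lean controls. That ratio averaged 0.79 ± 0.77 (SD, n = 5) in obese controls and 0.25 ± 0.31 (SD, n = 5) in lean controls on the log2 scale, a difference of 0.54 with a Benjamini-Hochberg adjusted p of 0.860 by exact permutation.

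Members were next compared with each other across libraries. Correlations are given within sets: libraries at or above 10 CPM of Avp, called with Avp, and libraries under 10 CPM. That division was chosen after the data were seen, with 30 tests in all. Among the 9 obese and lean libraries with Avp, Hcrt and Pmch had Pearson r = 0.847 (exact permutation p = 0.00361, adjusted 0.0361) and Spearman rho = 0.800 (exact permutation p = 0.0138, adjusted 0.104). Without the 2 libraries farthest from the median of Hcrt, r was 0.580, so the relation leans on those libraries. In the same 9 libraries Pomc and Cartpt had r = 0.796 (exact permutation p = 0.00920, adjusted 0.0547), rho = 0.850 (exact permutation p = 0.00607, adjusted 0.104) and r = 0.641 without the 2 farthest. Cartpt and Pmch there had r = 0.788 (exact permutation p = 0.0118, adjusted 0.0547), rho = 0.617 (exact permutation p = 0.0857, adjusted 0.321) and r = 0.447 without 2.

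Among the 7 libraries of the DIO cohort with Avp, Pomc and Cartpt had r = 0.909 (exact permutation p = 0.00119, adjusted 0.0179) and rho = 0.893 (exact permutation p = 0.0123, adjusted 0.104), and r was 0.811 without the 2 farthest. Hcrt and Pmch had r = 0.809 (exact permutation p = 0.0310, adjusted 0.103), rho = 0.607 (exact permutation p = 0.167, adjusted 0.500) and r = 0.656 without 2. None of the pairs of Agrp, Pomc or Cartpt with Hcrt or Pmch passed in these 7. Their Pearson r were all negative, while the signs of rho were mixed. Pomc and Pmch had r = -0.358 (exact permutation p = 0.414, adjusted 0.565) with rho = -0.393 (exact permutation p = 0.396, adjusted 0.593), and Cartpt and Pmch r = -0.413 (exact permutation p = 0.388, adjusted 0.554) with rho = -0.393 (exact permutation p = 0.396, adjusted 0.593). Agrp and Hcrt had r = -0.0403 (exact permutation p = 0.909, adjusted 0.940) with rho = 0.500 (exact permutation p = 0.267, adjusted 0.534).

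Among the 11 obese and lean libraries without Avp, Pomc and Pmch had r = 0.865 (permutation p = 0.00096, adjusted 0.0179), rho = 0.736 (permutation p = 0.0127, adjusted 0.104) and r = 0.607 without 2. Hcrt and Pmch there had r = 0.700 (permutation p = 0.0509, adjusted 0.127) and rho = 0.239 (permutation p = 0.478, adjusted 0.652), and r = -0.271 without 2, so their relation rested on those libraries. The 4 libraries of the DIO cohort without Avp are too few for a value.

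Agrp and Pomc, the arcuate antagonist and precursor, had r = 0.823 (exact permutation p = 0.0128, adjusted 0.0547) and rho = 0.750 (exact permutation p = 0.0255, adjusted 0.153) in the 9 obese and lean libraries with Avp. Without the 2 farthest r was 0.586. In the 7 libraries of the DIO cohort r was 0.812 (exact permutation p = 0.0401, adjusted 0.114) and rho 0.607 (exact permutation p = 0.167, adjusted 0.500). In the 11 obese and lean libraries without Avp r was 0.485 (permutation p = 0.130, adjusted 0.260) and rho 0.323 (permutation p = 0.329, adjusted 0.548). Both genes also went with the summed pituitary genes. In the 20 obese and lean libraries r with that sum was 0.760 for Agrp and 0.759 for Pomc. In the 11 of the DIO cohort it was 0.856 and 0.938. The part of shared tissue was not tested, so these values do not show how the 2 genes are regulated relative to each other.

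The genes whose pattern over the 31 libraries was most like each member's were ranked by Pearson r after removing group means, and the first 3 are given. For Hcrt they were Pmch (r = 0.941), Avp (0.875) and Ece2 (0.856), and for Pmch they were Hcrt (0.941), Avp (0.919) and Arhgap36 (0.900). For Pomc they were Ces1d (0.873), Cga (0.870) and Col22a1 (0.856), and the same 3 genes led for Agrp: Col22a1 (0.840), Cga (0.834) and Ces1d (0.829). For Cartpt they were Gabre (0.910), Celf6 (0.904) and Gal (0.895), the last being the galanin precursor, itself a peptide of feeding circuits. Lower in the ranking for Cartpt stood Oxt (0.890) and Avp (0.885), so its pattern was not apart from that of Hcrt and Pmch. Npy had no close partner, the highest values being Otulin (0.575), Coq7 (0.574) and Nkpd1 (0.573).

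Other genes of the feeding pathway were read from lists by function, with edgeR as above. The receptors of these peptides include the melanocortin, NPY, orexin and MCH receptors. Of these, 0 of 8 tested passed the threshold in each of the 6 comparisons of obese and lean rats and 0 of 9 in DIO-stz rats. Of leptin, insulin and ghrelin signalling, 0 of 12 and 0 of 14 passed. Of the transcription factors of feeding neurons, 0 of 11 and 0 of 12 passed, and of co-transmitters and neighbouring peptides, 0 of 12 and 0 of 13. In any one comparison at most 1 gene of each of the first 3 lists, and at most 2 of the last, had an unadjusted p under 0.05, and DESeq2 called none. Over all genes tested by edgeR, 0.325% passed in obese against lean controls, 2.59% in pFUS rats, 3.89% averaged and 0% in the other comparisons. The shares with an unadjusted p under 0.05 ran from 1.31% to 21.2%. At such shares short lists can hold no gene past the threshold, so these counts do not set the lists apart from other genes.

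In obese against lean controls the median log2 fold change was 0.06 for the receptors, 0.02 for leptin, insulin and ghrelin signalling, 0.27 for the transcription factors and -0.16 for the co-transmitters, beside -0.02 for all genes. The median of the 5 members tested was -0.41 in controls, -0.85 in pFUS rats and -0.16 averaged, beside -0.02, -0.02 and -0.01 for all genes. It was -1.81 with ultrasound in DIO-stz rats, the comparison in which all 5 had negative values.

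Among the 7 enzymes tested that process propeptides, 1 rose in obese against lean pFUS rats and none fell by edgeR. By edgeR 383 of 14791 genes (2.59%) passed in that comparison. DESeq2 called 3 of the enzymes there and 1170 of 14791 genes, and 4 enzymes had an unadjusted p under 0.05 by edgeR, as had 3133 genes (21.2%). The gene that rose was Pcsk2, the convertase that cuts POMC and other precursors into active peptides. It stood at 372 ± 35.1 CPM (SD, n = 5) in obese pFUS rats and 165 ± 46.8 CPM (SD, n = 5) in lean pFUS rats. It ranged from 325.6 to 405.9 CPM in the former and from 113 to 229.9 CPM in the latter. Its log2 fold change was 1.06 ± 0.23 (SE) in pFUS rats (edgeR adjusted p = 0.0272) and 0.59 ± 0.16 (SE) averaged over both arms (edgeR adjusted p = 0.0496).

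In controls Pcsk2 stood at 316 ± 47.4 CPM (SD, n = 5) in obese and 258 ± 81.8 CPM (SD, n = 5) in lean rats. The call in pFUS rats was lost in 4 of 16 alternatives, with an adjusted p of 0.00108 to 0.0899 over all 16, and the averaged call in 17 of 25, with one of 0.0102 to 0.0993. Pcsk2 is made by many neurons outside the hypothalamus. The summed markers of cortex and hippocampus moved with it, from 1433 to 3333 CPM in obese and from 625.2 to 1592 CPM in lean pFUS rats, and their part in its level was not tested.

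Among 8 immediate early genes, which neurons switch on when they fire, 1 fell and none rose in obese against lean controls by edgeR, where 48 of 14791 genes (0.325%) passed, and likewise averaged over both arms, where 575 (3.89%) did. Npas4 stood at 2.78 ± 1.48 CPM (SD, n = 5) in obese controls and 14.7 ± 8.88 CPM (SD, n = 5) in lean controls, with ranges of 1.25 to 5.11 and 4.35 to 28.4 CPM. Its log2 fold change was -2.56 ± 0.47 (SE) in controls (edgeR adjusted p = 0.0187) and -1.66 ± 0.32 (SE) averaged (edgeR adjusted p = 0.00690). The call in controls was lost in 5 of 16 alternatives, up to an adjusted p of 0.125 with only the compared groups in the fit. The averaged call was lost in 0 of 25. In pFUS rats Npas4 stood at 6.25 ± 3.34 CPM (SD, n = 5) in obese and 9.80 ± 2.13 CPM (SD, n = 5) in lean rats. Those ranges overlapped, and the means lay closer together than in controls. The averaged call therefore does not show a fall in each arm. The summed markers of cortex and hippocampus ran from 456 to 4266 CPM in obese and 849 to 4227 CPM in lean controls.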

How the data were processed

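RNA of 31 brain libraries was sequenced from a stranded mRNA kit, per the labels' protocols. The authors deposited expected counts for genes and for isoforms, which hold whole numbers only and carry no normalization. The submitters' processing notes name STAR 2.5.3a, RSEM and the build Rnor_6.0. For annotation release and strand setting, nothing is given in the sources used here. CPM was computed from them over each library's total.

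All genes were fitted with edgeR 4.0.16 in R 4.3.3 (TMM factors, filterByExpr with a minimum count of 10, robust quasi-likelihood test, Benjamini-Hochberg adjustment with a threshold of 0.05), the 20 obese and lean libraries in one fit and the 11 of the DIO cohort in another with a sex term. Agrp failed the filter, so exact two-sided permutation of libraries on log2(CPM + 1) took the place of the planned fit. Correlations over 10 or more libraries were permuted with 100000 resamples. Scripts were tested on simulated data.

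Members and lists were chosen with earlier results of these data known. The text names the members, the 3 genes most like each (of those with a symbol and a mean of at least 1 CPM in brain), list genes past the threshold, and markers. Alternatives were DESeq2 1.42.0, other scaling, no filter, only the compared groups, another pseudocount, male libraries only or no sex term for DIO-stz, each library left out in turn, lean control 11 and lean pFUS 19 left out together, and, added after seeing the data, the hypothalamic marker sum as a covariate. Intervals and detection limits cover counting error and the spread of these libraries only.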

Additional observations from a re-analysis of the deposited data

Results flagged for a closer look

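In 13 of the 35 sets of a member's values in a group that could be tested, 1 library lay apart from the others by Dixon's 95% criterion, its gap to the nearest library being a large part of the group's range. The criterion flags about 1 in 20 groups by chance only where values spread normally. CPM here are skewed and hold many zeros, and a group with only 1 library above 0 is always flagged. The 13 of 35 are therefore not set against a chance rate, and members that share libraries are not independent. For Agrp these were obese control 2 at 2.38 CPM (next 0.0994 CPM), lean control 12 at 3.97 CPM (next 0.874 CPM) and DIO-stz control 5 at 2.68 CPM (next 0.156 CPM). For Pomc they were lean control 12 at 26.2 CPM (next 2.30 CPM), DIO-stz control 5 at 47.8 CPM (next 2.27 CPM) and DIO-stz pFUS 11 at 5.81 CPM (next 2.11 CPM).

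Cartpt stood apart in lean control 12 at 29.2 CPM (next 4.21 CPM). Hcrt stood apart in obese pFUS 9 at 21.4 CPM (next 0.760 CPM) and lean pFUS 16 at 28.1 CPM (next 5.33 CPM). Pmch stood apart in obese pFUS 9 at 138 CPM (next 28.6 CPM) and DIO-stz pFUS 8 at 147 CPM (next 29.7 CPM). Npy stood apart in lean pFUS 19 at 1.01 CPM and DIO-stz control 3 at 0.839 CPM, where the other libraries of the group were listed at 0.

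The diet resistant rats enter no comparison, and 2 of their values lay above every DIO-stz control: Npy at 3.00 CPM in diet resistant 1, against at most 0.839 CPM, and Pmch at 447.5 CPM in diet resistant 2, against at most 241.3 CPM.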

How the results depend on the processing

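No paired analysis was possible because the groups compared share no replicate numbers in the labels. Of 749 values of members under the alternatives, 3 passed 0.05, all of Agrp and all with 1 obese library left out. These 3 are unadjusted exact permutation p-values, whereas the edgeR and DESeq2 values of members were adjusted over all genes tested. The count therefore does not set Agrp apart from the other members. Counts of genes past the threshold moved by over 1.5 times as follows, in the order obese against lean controls, pFUS rats and averaged: 103, 1170 and 1211 by DESeq2; 27, 174 and 375 without the filter; 101, 853 and 1540 without lean control 11 and lean pFUS 19; and 11 and 84 for the first pair with only the compared groups. With the marker covariate 120 genes passed in pFUS rats. Ultrasound calls were 7 in obese rats, 2 in lean rats and 3 for the interaction by DESeq2, and 1 in lean rats with only those groups. The cause was not tested.

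With the marker covariate, added after seeing the data, log2 fold changes changed sign to -2.50 for Hcrt and -1.70 for Pmch in controls, 1.53 and 2.31 in pFUS rats, 0.89, 1.46 and 1.82 for Cartpt, Hcrt and Pmch with ultrasound in obese rats, -2.56 and -2.19 for Hcrt and Pmch in lean rats, 0.55, 4.02 and 4.01 for Cartpt, Hcrt and Pmch in the interaction, and 0.20 for Pmch in DIO-stz rats. The permutation scale gave 0.11 for Cartpt in controls and 0.38 for Pomc with ultrasound in lean rats. Without lean control 11 and lean pFUS 19, averaged Hcrt was 0.22 and the ratio of Agrp to Pomc in controls 0.0225. With a pseudocount of 0.1 CPM that ratio was 0.0768 with ultrasound in obese rats and -0.49 in DIO-stz rats.

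With each library left out in turn, counts ran from 18 to 46 in controls, 45 to 464 in pFUS rats and 247 to 788 averaged. Obese against lean controls gave Npy -1.68 to 0.33, Pomc -2.18 to 0.39, Cartpt -0.96 to 1.23 and Hcrt -0.73 to 1.38. In pFUS rats Hcrt gave -4.29 to 1.32 and Pmch -2.76 to 0.64, and averaged values gave Npy -0.17 to 2.49, Hcrt -1.99 to 0.83 and Pmch -0.46 to 1.25. Ultrasound in obese rats gave Agrp -0.14 to 0.30, Pomc -0.28 to 0.71, Cartpt -0.94 to 0.27 and Hcrt -3.98 to 0.72, and in lean rats Agrp -0.38 to 0.0921, Pomc -0.81 to 1.60, Hcrt -1.32 to 1.70 and Pmch -0.13 to 2.73. The interaction gave Pomc -1.55 to 1.02 and Hcrt -4.60 to 0.99, and DIO-stz rats gave Npy -4.31 to 0.00, Pomc -3.88 to 0.60, Cartpt -2.31 to 0.48 and Pmch -4.83 to 0.33. Log2 ratios in controls gave Agrp to Pomc -0.39 to 0.15, Npy to Pomc -0.29 to 0.72 and Hcrt to Pmch -1.01 to 0.14. With ultrasound in obese rats they gave Npy to Pomc -0.10 to 0.46, Hcrt to Pmch -0.96 to 0.20 and Cartpt to Pomc -0.44 to 0.0766. In lean rats Agrp to Npy gave -0.29 to 0.35, and in DIO-stz rats Agrp to Pomc gave -0.20 to 0.73, Npy to Pomc -0.39 to 1.35 and Agrp to Npy -0.66 to 0.19.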

Other observations

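Outside brain, the members with lateral hypothalamic neurons as their source were almost absent. Hcrt was at 0 in all adipose, blood, intestine, kidney, liver and muscle libraries and at 0.0904 CPM in 1 of 20 pancreas libraries, and Pmch was at most 0.120 CPM outside brain. Pomc, by contrast, was counted in all 21 kidney libraries, at 1.71 to 10.2 CPM with a median of 4.95 CPM, and in all 29 intestine libraries, at 0.542 to 3.40 CPM. Its median in brain was 2.11 CPM. Cartpt was counted in all 29 intestine libraries, at 0.403 to 3.43 CPM, and reached 6.48 CPM in pancreas, and was at 0 in all blood, kidney and liver libraries.

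Npy was counted in 30 of 31 blood libraries and reached 27.8 CPM there, above its brain maximum of 3.00 CPM. In blood its level was 21.8 ± 6.53 CPM (SD, n = 4) in DIO-stz controls, 15.8 ± 7.22 CPM (SD, n = 5) in DIO-stz pFUS rats and 18.3 ± 0.217 CPM (SD, n = 2) in diet resistant rats. It was 3.25 ± 3.40 CPM (SD, n = 5) in obese controls, 2.03 ± 1.22 CPM (SD, n = 5) in obese pFUS rats, 1.38 ± 1.01 CPM (SD, n = 5) in lean controls and 1.56 ± 0.868 CPM (SD, n = 5) in lean pFUS rats. These are levels only, no test was run in blood, and the irregular counts of Npy apply there too.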
